A study of Mus musculus with 6 samples.

Results

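The 8 genes described here carry long-chain fatty acids from circulating lipoproteins into the cell and hold them there: Lpl, Cd36, Slc27a1, Slc27a2, Acsl1, Fabp3, Fabp5 and Plin2. They were picked by name, with earlier results of these data known, from the 24391 genes of the deposited count table. The gene lists used below were chosen with the same knowledge. All 8 genes had enough reads to be tested. RNA was sequenced from atherosclerotic lesions of the BCA, taken here as the brachiocephalic artery, the short vessel between the aortic arch and the right carotid and subclavian arteries. The groups were 3 Col15a1-/- animals (KO) and 3 wild-type animals (WT), all on a C57BL/6 background and all fed a Western diet for 18 weeks. The deleted gene codes for type XV collagen, found near basement membranes. The series title calls the deletion specific to smooth muscle cells (SMC), while the genotype label reads Col15a1-/-. No Cre driver, age or genotype at another locus is given in the sources used here. The tissue is labelled a mixture of SMC, epithelial cells, macrophages and others, so each value is an average over whole lesions, in which fewer cells of a type and less RNA per cell cannot be told apart.

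Long-chain fatty acids reach tissues largely as triglyceride in lipoproteins. Lipoprotein lipase frees them at the vessel surface, CD36 and the fatty acid transport proteins of the SLC27 family help them across the membrane, acyl-CoA synthetases trap them as acyl-CoA, fatty acid binding proteins carry them through the cytosol, and perilipins coat the droplets in which they are stored. In the artery wall these steps are known from lipid-laden macrophages and from the fat that surrounds the vessel, and many of the genes are targets of the nuclear receptors PPARalpha and PPARgamma.

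Levels of Slc27a2, Fabp3 and Acsl1 were higher in each KO library than in each WT library, by 5.62-fold, 2.56-fold and 1.76-fold of the group means. Fabp5 was lower in each KO library, by 1.85-fold. Of all genes tested, 8.33% lay higher in each KO library and 8.38% lower, so such a split is not rare in these data. Cd36, Slc27a1, Lpl and Plin2 overlapped between the groups. None of the 8 passed an adjusted p of 0.05 in edgeR's quasi-likelihood test with Benjamini-Hochberg adjustment over 15937 genes, and nor did any other gene (0 of 15937, 0%; 641 were higher and 634 lower at an unadjusted p under 0.05). DESeq2, run on the same genes, called Slc27a2 and Fabp3 higher and Fabp5 lower, 3 of the 8, against 0.347% of all genes with an adjusted p.

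**Figure D1:**
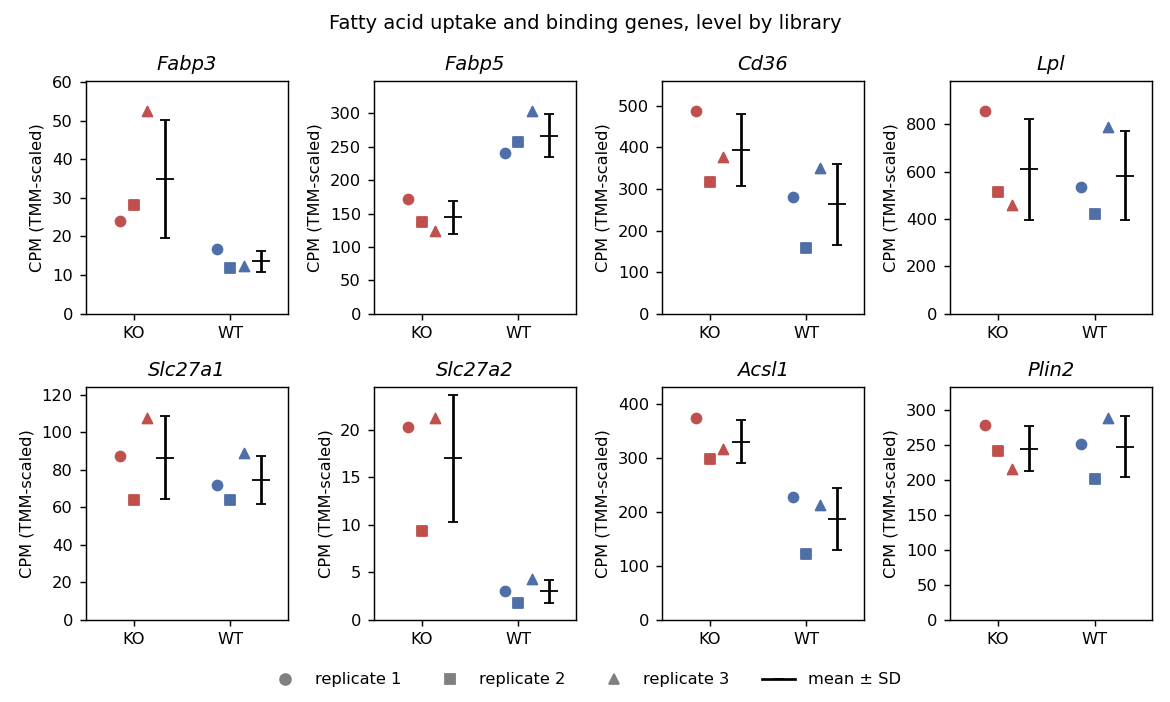
Level of each of the 8 genes in CPM (counts relative to library size, scaled by TMM) in the 3 KO and 3 WT libraries, with bars for mean ± SD. Slc27a2, Fabp3 and Acsl1 lie higher in every KO library, Fabp5 lies lower in every KO library, and the other 4 genes overlap.

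In the mm9 annotation of the count table, Lpl lies at chr8:71404454-71430831, Cd36 at chr5:17287508-17394777, Slc27a1 at chr8:74092826-74110607, Slc27a2 at chr2:126378760-126413979 and Acsl1 at chr8:47556391-47621405. Fabp3 lies at chr4:129986022-129992707, Fabp5 at chr3:10012585-10016610 and Plin2 at chr4:86302469-86315963. Counts cover the exons of each gene. Fabp3 and Plin2 share chromosome 4 with Col15a1, at distances of 82.8 and 39.1 Mb.

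The targeted gene was checked first. Col15a1 was at 193, 198 and 91.0 CPM in the KO libraries, against 574, 407 and 501 CPM in the WT libraries, so each library followed its label (log2 fold change -1.62, SE 0.33, adjusted p 0.587 by edgeR and 0.00224 by DESeq2). CPM are gene counts relative to library size, scaled by the trimmed mean of M values (TMM). The counts cover all exons of Col15a1 and do not separate transcript of a deleted allele from transcript of cells that keep the gene. Total counts ran from 23133078 to 26228384 in KO and from 22223584 to 26982005 in WT. Along the first principal component (64.6% of the variance) 2 libraries stood apart, KO 3 (score 95.0) and WT 2 (48.4), from the other 4 (-38.6 to -33.7). Summed levels of 17 nerve and sympathetic neuron markers were 424, 354 and 9566 CPM in KO 1 to 3, against 420.2, 5003 and 529 CPM in WT 1 to 3. Smooth muscle markers summed to 6571 to 16177 CPM in KO and 6157 to 10925 CPM in WT, so smooth muscle transcripts were abundant in all 6. Results are also given without WT 2 and KO 3, a setting chosen after the data had been seen.

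Lpl encodes lipoprotein lipase, which cuts triglyceride in lipoproteins at the luminal surface. Its level was 855, 515 and 459.6 CPM in KO, against 534, 422 and 789 CPM in WT. The highest value was in KO 1 and the lowest in WT 2, and the groups overlapped across most of their range. The log2 fold change of KO over WT was 0.068 (SE 0.33), with an adjusted p of 0.959 by edgeR. Without KO 1 it was -0.32 and without WT 2 it was -0.12, so the data give no direction for Lpl.

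Cd36 encodes a membrane glycoprotein that binds long-chain fatty acids and oxidised low-density lipoprotein. It was at 487, 317 and 377 CPM in KO, against 282, 158 and 351 CPM in WT. KO 2 lay below WT 3, and WT 2 was the lowest of the 6 libraries. The log2 fold change was 0.58 (SE 0.32, adjusted p 0.695 by edgeR), and without WT 2 and KO 3 it was 0.34.

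Slc27a1 and Slc27a2 encode FATP1 and FATP2, transport proteins with acyl-CoA synthetase activity; FATP1 is known from muscle and fat, and FATP2, also called very long-chain acyl-CoA synthetase, from liver and kidney. Slc27a1 was at 87.5, 63.8 and 108 CPM in KO, against 71.7, 63.7 and 88.8 CPM in WT, a log2 fold change of 0.21 (SE 0.23, adjusted p 0.875 by edgeR). Its groups overlapped, and without WT 2 and KO 3 the value was -0.09. Slc27a2 was at 20.3, 9.34 and 21.3 CPM in KO, against 3.00, 1.815 and 4.25 CPM in WT. These levels rest on 471, 214 and 540 reads in KO, against 66, 54 and 110 reads in WT. The lowest KO library stood above the highest WT library, and within KO the second animal was lower than the others. The log2 fold change of Slc27a2 was 2.49 (SE 0.45), with an unadjusted p of 0.00138 and an adjusted p of 0.587 by edgeR and an adjusted p of 0.000124 by DESeq2, and without WT 2 and KO 3 the log2 fold change was 2.02. Per kilobase of exon (RPKM), Slc27a2 stood at 0.282, 0.178 and 0.240 of the level of Slc27a1 in KO, against 0.0508, 0.0346 and 0.0581 in WT, and these ratios did not overlap. Slc27a2 nevertheless remained the lowest of the 8 genes in all 6 libraries on that scale.

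Acsl1 encodes a long-chain acyl-CoA synthetase of fat, heart and liver, which activates fatty acids for oxidation or storage. It was at 375, 299 and 317 CPM in KO, against 228, 122 and 212 CPM in WT. All KO libraries lay above all WT libraries, with the lowest value in WT 2. Its log2 fold change was 0.82 (SE 0.26), the adjusted p was 0.587 by edgeR and 0.185 by DESeq2, and without WT 2 and KO 3 the log2 fold change was 0.61.

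Fabp3, the heart-type binding protein, was at 24.02, 28.1 and 52.4 CPM in KO, against 16.7, 11.8 and 12.3 CPM in WT. The groups did not overlap, and KO 3, one of the libraries that stood apart, was the highest. The log2 fold change of Fabp3 was 1.36 (SE 0.33), with an adjusted p of 0.587 by edgeR and 0.0459 by DESeq2, and without WT 2 and KO 3 it was 0.84. Fabp5, the epidermal-type binding protein that is also made by macrophages, was at 171, 137 and 124 CPM in KO, against 240.0, 257 and 303 CPM in WT. Every KO library lay below every WT library. Its log2 fold change was -0.89 (SE 0.17), with an unadjusted p of 0.00175 and an adjusted p of 0.587 by edgeR and 0.00372 by DESeq2. Multi-mapping reads were left out of the counts, so copies of Fabp3 or Fabp5 elsewhere in the genome can lower their counts, and how much was not tested.

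Plin2 encodes a perilipin that coats lipid droplets in most cell types and is a usual marker of lipid loading. Its level was 279, 242 and 215 CPM in KO, against 252, 202 and 289.7 CPM in WT. The lowest and the highest value were both in WT. The log2 fold change was -0.016 (SE 0.18, adjusted p 0.982 by edgeR), and it was 0.069 without KO 3 and 0.040 without WT 3.

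**Figure D2:**
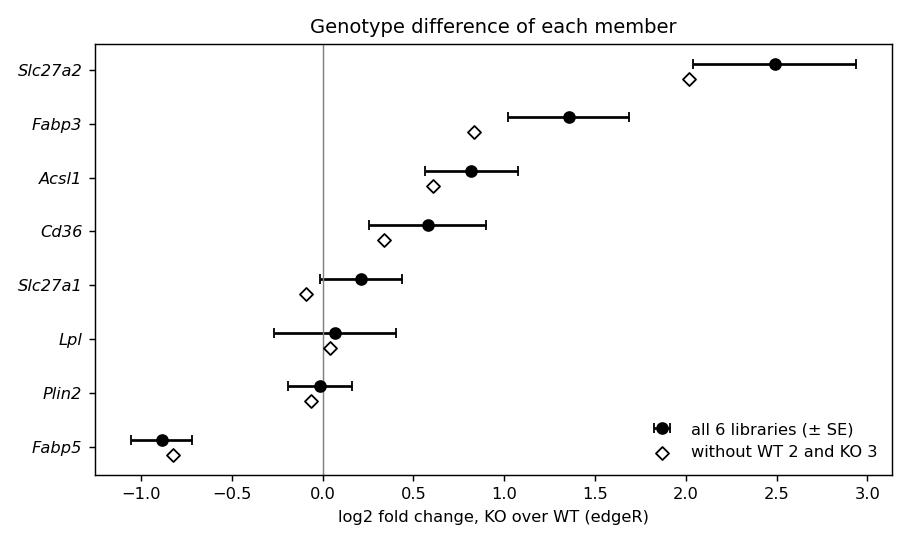
Log2 fold change of KO over WT for each gene from edgeR, with filled points and ± SE bars for all 6 libraries and open points for the fit without WT 2 and KO 3. Slc27a2 (2.49) and Fabp5 (-0.89) mark the ends, and Slc27a1 is the gene whose open point falls on the other side of 0.

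Read against all genes, 6 of the 8 log2 fold changes were positive, and their median was 0.39. Over the 15937 genes tested the median was 0.068, with 9701 positive and 6236 negative values. Groups did not overlap for 4 of the 8, with 3 higher and 1 lower in KO, against 16.7% of all genes in both directions. By edgeR's unadjusted p, 3 of the 8 were under 0.05 and higher and 1 was under it and lower, against 4.02% and 3.98% of all genes. DESeq2 gave 2 higher and 1 lower, against 0.197% and 0.151% of 15254 genes with an adjusted p, 0.347% in both directions. The 8 were chosen with earlier results of these data known, so these shares are a description and not a test. In an exact permutation test of single genes, two-sided over 20 arrangements, Slc27a2, Fabp3, Acsl1 and Fabp5 each had p = 0.1, the smallest that 3 against 3 libraries allow. Without WT 2 and KO 3 the median of the 8 was 0.19 and 5 were positive.

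RPKM allow the genes to be ranked within a library. Fabp5 ranked first in 5 of 6 libraries and Lpl in KO 1. In KO the order of means was Fabp5 (151 ± 25.4 RPKM), Lpl (150.6 ± 52.8), Plin2 (129.98 ± 16.9), Cd36 (100.2 ± 22.0), Acsl1 (80.7 ± 9.71), Fabp3 (54.4 ± 23.9), Slc27a1 (30.9 ± 7.89) and Slc27a2 (7.38 ± 2.88; SD, n = 3). In WT it was Fabp5 (279.8 ± 34.2 RPKM), Lpl (144 ± 46.5), Plin2 (131 ± 23.3), Cd36 (67.1 ± 24.9), Acsl1 (45.8 ± 13.9), Slc27a1 (26.7 ± 4.59), Fabp3 (21.3 ± 4.25) and Slc27a2 (1.31 ± 0.529). Neighbours in this order that differed by less than the larger of their SDs were Fabp5 with Lpl and Fabp3 with Slc27a1 in KO, and Lpl with Plin2 and Cd36 with Acsl1 in both groups. The other neighbours were farther apart.

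Sequence just upstream of the start is shown for Slc27a2, Acsl1 and Fabp3, which were higher in every KO library, and for Plin2, whose groups overlapped, to set their promoters side by side. The sequences are from RefSeq (GRCm38.p6), which held a window for 6 of the 8 genes (the others are Fabp5 and Lpl), and are the 250 bases before the start of the gene, 5′ to 3′ on its strand. They lie at chr2:126552774-126553023 (plus strand) for Slc27a2, chr8:46470787-46471036 (plus) for the first Acsl1 start, chr4:130308488-130308737 (plus) for Fabp3 and chr4:86670060-86670309 (minus) for Plin2. Capitals mark AGGTCA, the letters of a nuclear receptor half-site, GGGCGG, a GC box, and CCAAT, on either strand (TGACCT and CCGCCC are the first pair read on the other strand).
Slc27a2: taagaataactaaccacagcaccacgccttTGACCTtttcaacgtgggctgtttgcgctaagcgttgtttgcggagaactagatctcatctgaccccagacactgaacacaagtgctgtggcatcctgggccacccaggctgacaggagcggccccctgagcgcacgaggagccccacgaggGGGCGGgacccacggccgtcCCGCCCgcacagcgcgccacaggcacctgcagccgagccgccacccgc
Acsl1: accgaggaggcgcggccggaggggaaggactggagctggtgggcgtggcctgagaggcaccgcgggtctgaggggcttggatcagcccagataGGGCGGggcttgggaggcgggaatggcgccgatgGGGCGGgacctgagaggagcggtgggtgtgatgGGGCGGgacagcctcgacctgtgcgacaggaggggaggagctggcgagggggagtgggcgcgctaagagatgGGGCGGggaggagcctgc
Fabp3: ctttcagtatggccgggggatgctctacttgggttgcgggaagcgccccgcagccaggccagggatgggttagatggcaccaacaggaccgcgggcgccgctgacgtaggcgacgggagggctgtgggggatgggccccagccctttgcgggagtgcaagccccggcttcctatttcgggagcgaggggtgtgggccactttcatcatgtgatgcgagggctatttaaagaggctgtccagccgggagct
Plin2: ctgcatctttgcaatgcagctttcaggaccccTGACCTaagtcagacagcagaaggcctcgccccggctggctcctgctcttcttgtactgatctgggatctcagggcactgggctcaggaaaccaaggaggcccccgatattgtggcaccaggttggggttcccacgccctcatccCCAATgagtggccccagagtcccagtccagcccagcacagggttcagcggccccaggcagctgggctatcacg
AGGTCA lay 220 bases before the start in Slc27a2, 218 in Plin2 and 228 in Cd36, and 16.3% of all 32851 windows of 300 bases held it. The exact direct repeat of that half-site with 1 base between, the DR1 form that PPARs bind, was in none of the windows of these genes and in 0.0396% of all windows. GGGCGG occurred 7 times in the first Acsl1 window, of which 4 are among the bases shown, and 2 times in Slc27a2. It also occurred 2 times in Cd36, 1 time in Plin2 just after the start and in 2 of the 3 windows of Slc27a1, while 35.7% of all windows held at least 1. The Fabp3 window held none of the 5 motifs searched, which also included TATAAA (13.6% of all windows) and CCAAT (37.4%). GC content of the 250 bases was 64.0% in Slc27a2, 72.0% in Acsl1, 64.8% in Fabp3 and 61.6% in Plin2, against a median of 52.4% over all windows. A match is letters in a window, not a measured site.

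Several of the 8 genes are also made by fat or by macrophages, and markers of both cell types differed between the groups. Summed levels of 16 adipocyte markers were 2664, 1958 and 2266 CPM in KO, against 1892, 921 and 1471 CPM in WT, and 16 of 16 had a positive log2 fold change (median 0.72). One of them, Sncg, was at 82.4, 85.8 and 473 CPM in KO, against 107, 257 and 97.0 CPM in WT, high in the libraries with nerve markers. Without Sncg, a choice made after its values were seen, the sums were 2581, 1872 and 1793 CPM in KO, against 1785, 663.5 and 1374 CPM in WT, and KO 3 lay only just above WT 1. Without WT 2 and KO 3, 15 adipocyte markers were positive, Sncg was at -0.29 and the median was 0.52. The brown adipocyte markers, such as Ucp1 and Cidea, summed to 572, 629 and 730.4 CPM in KO, against 426, 165.5 and 341 CPM in WT; Zic1 was at 0 in all KO libraries and too low to test, and 9 of the 9 tested were positive. Macrophage markers went the other way, with sums of 6472, 5242 and 1681 CPM in KO, against 8565, 8521 and 10225 CPM in WT, and 15 of 17 negative (median -0.91). The median was -0.61, with 16 of 17 negative, without WT 2 and KO 3. With all libraries, the positive macrophage markers were Cd163 (0.98), higher in every KO library, and Mrc1 (0.13), whose groups overlapped. Without WT 2 and KO 3, Cd163 was at 0.42 and Mrc1 at -0.011. None of the adipocyte, brown adipocyte and macrophage sums overlapped between the groups. The fat lists include Fabp4, Plin1, Plin4, Cidea, Cidec, Lipe and Ppargc1a, which also belong to the pathway lists described further on. Skeletal muscle markers summed to 464, 88.4 and 38.4 CPM in KO, against 135, 23.999 and 27.7 CPM in WT, and cardiac muscle markers to 219.6, 289 and 289 CPM in KO, against 154, 132 and 225 CPM in WT. Endothelial sums, from 1585 to 2253 CPM in KO and from 1434 to 2287 CPM in WT, overlapped.

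**Figure D3:**
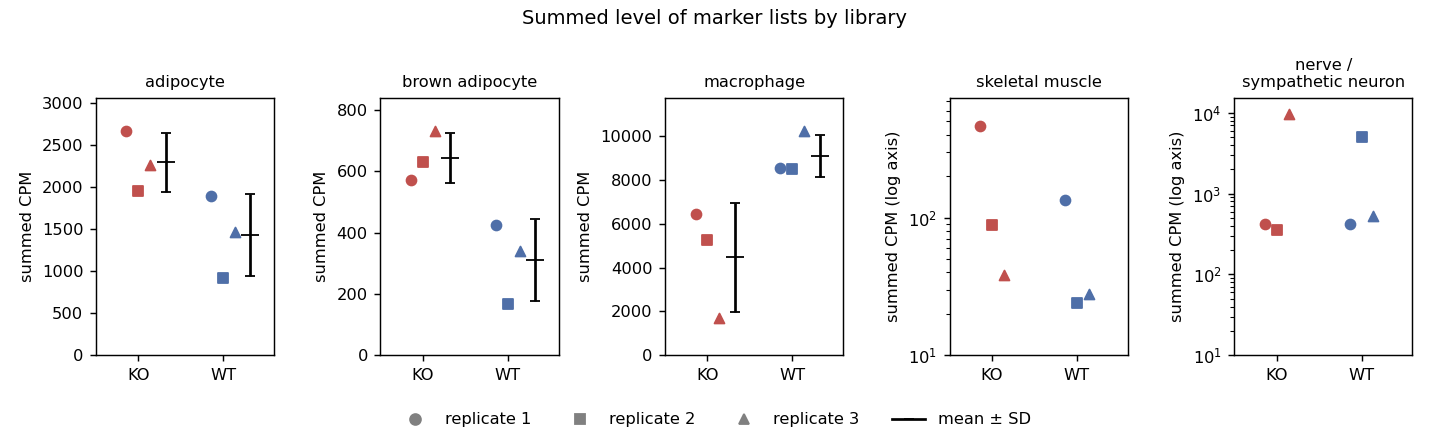
Summed CPM of marker genes for 5 cell types in the 3 KO and 3 WT libraries, with mean ± SD where the axis is linear; the skeletal muscle and nerve panels have log axes. Adipocyte and brown adipocyte sums are higher in every KO library, macrophage sums are lower in every KO library, and KO 3 and WT 2 carry the nerve markers.

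Each gene was then set against the marker sum of the cell type in question, as CPM per 1000 CPM of the list. Slc27a2 relative to adipocyte markers was 7.63, 4.77 and 9.40 in KO, against 1.59, 1.97 and 2.89 in WT, so it remained higher in every KO library, by 3.38-fold. Relative to brown adipocyte markers it was 35.5, 14.8 and 29.15 in KO, against 7.05, 10.97 and 12.45 in WT. That was 2.61-fold higher and again without overlap. In WT, Dio2 alone gave 169, 87.7 and 118 CPM of brown list sums of 426, 165.5 and 341 CPM. In KO it gave 124, 199 and 162 CPM of sums of 572, 629 and 730.4 CPM. Its own groups overlapped. Ratios to the brown list without Dio2 were not computed, so the lack of overlap may depend on that gene. Acsl1 relative to adipocyte markers was 140.7, 153 and 139.8 in KO, against 120.3, 132.5 and 144 in WT, and these overlapped. Cd36 relative to adipocyte markers overlapped too, at 183, 162 and 166 in KO, against 149, 172 and 238.5 in WT. Fabp3 relative to brown adipocyte markers was 42.0, 44.7 and 71.7 in KO, against 39.3, 71.1 and 36.1 in WT, with overlap.

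Plin2 relative to adipocyte markers was lower in every KO library, at 104.6, 123.5 and 95.0 in KO, against 133, 219.6 and 197 in WT (0.588-fold), and relative to brown adipocyte markers it was 0.438-fold, also without overlap. Slc27a1 relative to brown adipocyte markers was 153, 101 and 148 in KO, against 168, 385 and 260.2 in WT (0.494-fold, without overlap), and relative to adipocyte markers it overlapped. Lpl relative to either fat list overlapped. Relative to macrophage markers, whose sum was lower in KO, all of the genes except Fabp5 were higher in every KO library. Plin2 was 2.67-fold, Slc27a1 3.66-fold and Lpl 2.665-fold higher on that scale. Such ratios move with the list sum as well as with the gene, and Plin2 itself had a log2 fold change of -0.016. With Sncg left out of the adipocyte list, Slc27a2 remained higher in every KO library (3.29-fold), Fabp5 (0.281-fold) and Plin2 (0.544-fold) remained lower, and the other 5 genes overlapped.

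Fabp5 relative to macrophage markers was 26.5, 26.1 and 74.0 in KO, against 28.0, 30.2 and 29.6 in WT. KO 1 and KO 2 lay a little below the WT range and KO 3, with the lowest macrophage sum, far above it. Much of the macrophage sum came from Spp1 and Gpnmb. Spp1 was at 2353, 1551 and 218 CPM in KO, against 3455, 3926 and 3876 CPM in WT. Gpnmb was at 1569, 1117 and 177 CPM in KO, against 1630, 1363 and 2376 CPM in WT. All ratios to the macrophage list depend on these genes, and ratios without them were not computed. Relative to adipocyte and endothelial markers Fabp5 was lower in every KO library, at 54.9 to 69.9 per 1000 adipocyte CPM in KO, against 127 to 279 in WT. The part of cell composition in the differences of these genes was not tested, and these ratios are a description only.

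**Figure D4:**
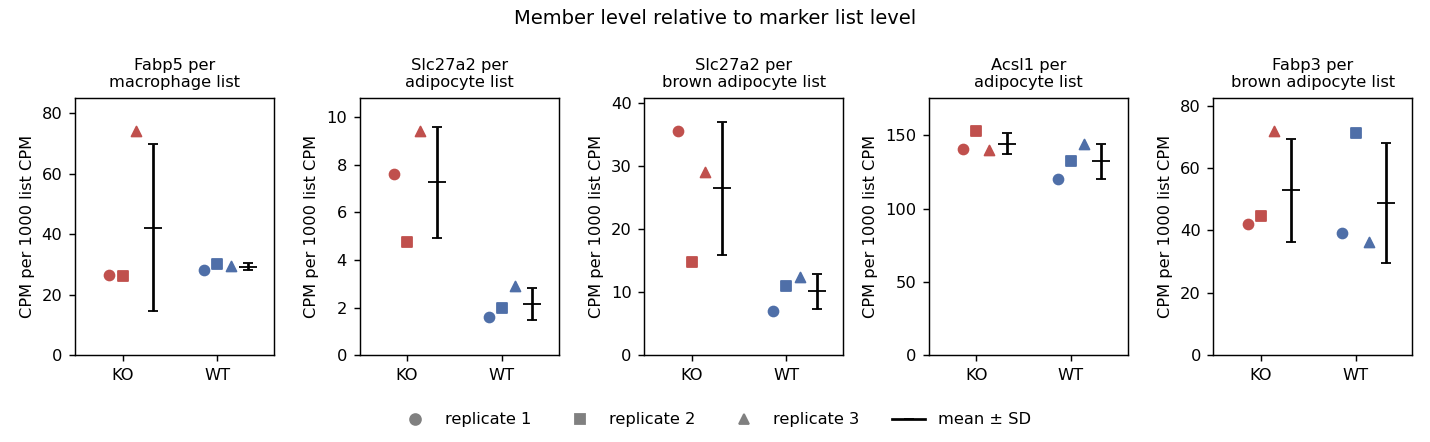
CPM of a gene per 1000 CPM of a marker list in the 3 KO and 3 WT libraries, with mean ± SD. Slc27a2 is higher in every KO library against both fat lists, Acsl1 and Fabp3 overlap, and for Fabp5 KO 3 lies far above the other 5 libraries.

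Other members of the same families give the setting. Fabp4, the adipocyte and macrophage binding protein, was at 645, 439 and 480.1 CPM in KO, against 376, 125 and 294 CPM in WT, a log2 fold change of 0.98 (adjusted p 0.618 by edgeR), and its groups did not overlap. In RPKM the ratio of Fabp5 to Fabp4 was 0.179, 0.209 and 0.174 in KO, against 0.430, 1.38 and 0.693 in WT. These ratios did not overlap, and Fabp5 exceeded Fabp4 in WT 2 alone. Fabp7, a binding protein of neural tissue, was at 5.39, 4.97 and 116 CPM in KO, against 5.002, 64.2 and 5.22 CPM in WT. It was high in the same KO 3 and WT 2 that held the nerve markers, and its log2 fold change was 0.76 with these libraries and 0.011 without them. Of the 9 family genes listed 4 could be tested, and Fabp9 was at 0 in every library.

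Of the other transport proteins, Slc27a3 was at 6.47 to 8.25 CPM in KO, against 6.59 to 10.7 CPM in WT, and Slc27a4 at 31.7 to 77.9 CPM in KO, against 32.1 to 54.9 CPM in WT, both with overlap. Slc27a4 was highest in KO 3 and WT 2, the libraries with nerve markers. Slc27a5 and Slc27a6 were at or below 1.47 CPM in all libraries. Slc27a2 was the one of the 6 whose groups did not overlap, and the family median was 0.089, or -0.037 without WT 2 and KO 3. Among the acyl-CoA synthetases, Acsl3, Acsl4, Acsl5, Acsl6, Acsbg1 and Acsbg2 overlapped between the groups, with log2 fold changes from -0.28 (Acsl4) to 0.66 (Acsbg1). Acsl3, Acsl4, Acsl6 and Acsbg1 were highest in KO 3 and WT 2. Acsl1 was the only one of these 7 without overlap. Groups did not overlap for 16.7% of all genes tested, so such a gene in a family of this size is not rare.

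The lipase partners and droplet genes were set beside Lpl and Plin2. Vldlr, a lipoprotein receptor gene, was at 128, 169.6 and 135 CPM in KO, against 113, 69.9 and 82.9 CPM in WT (log2 fold change 0.70, SE 0.21). Gpihbp1, which anchors the lipase to capillary endothelium, was at 7.89, 4.71 and 15.9 CPM in KO, against 4.05, 1.41 and 3.94 CPM in WT (1.604, SE 0.59, and 0.65 without WT 2 and KO 3). Both lay higher in every KO library, whereas the median of the 11 genes tested, of 15 listed, was 0.039, close to that of all genes, and Gm6484 overlapped (0.38). The list median was -0.045 and Gm6484 was at 0.087 without WT 2 and KO 3. Of 18 droplet genes tested, of 21 listed, 15 were positive, the median log2 fold change was 0.58, and 10 lay higher in every KO library, against 8.33% of all genes. Without WT 2 and KO 3, 12 of the 18 were positive and the median was 0.32. Plin5, a perilipin of oxidative tissue, was at 18.9, 15.97 and 22.0 CPM in KO, against 10.3, 4.37 and 9.74 CPM in WT (1.22, SE 0.34, and 0.79 without WT 2 and KO 3). Pnpla2, the triglyceride lipase, and Cidea, a droplet protein of brown fat, had log2 fold changes of 0.89 (0.59 without WT 2 and KO 3) and 1.32 without overlap. Plin1, the adipocyte perilipin, was at 0.63 without overlap (0.34 without WT 2 and KO 3), and Plin3 at -0.02 and Plin4 at 0.37 with it. No gene of either list passed the adjusted threshold in edgeR or DESeq2.

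Nuclear receptor and oxidation genes were set beside the uptake genes. Ppara, encoding a receptor for fatty acids, was at 48.9, 37.1 and 49.8 CPM in KO, against 23.7, 16.6 and 24.9 CPM in WT, a log2 fold change of 1.06 (SE 0.21) with an adjusted p of 0.587 by edgeR and 0.0088 by DESeq2. Its coactivators Ppargc1a (0.85) and Ppargc1b (0.96) and the adipocyte receptor Pparg (0.64) did not overlap between groups either. Of 10 PPAR regulators 8 were positive, with a median of 0.51, and without WT 2 and KO 3, 7 were positive and the median was 0.27. All 18 genes of mitochondrial fatty acid oxidation had log2 fold changes above 0, from 0.069 (Cpt1a) to 0.87 (Acadm), and their median was 0.66. In 16 of the 18 each KO library lay above each WT library, against 8.33% of all genes, and 13 were higher with an unadjusted p under 0.05, against 4.02% of all genes, but 0 passed the adjusted threshold in edgeR or DESeq2. Those without overlap included the dehydrogenase genes Acadl (0.81) and Acadm and the electron transfer gene Etfdh (0.70). Without WT 2 and KO 3, 17 of the 18 were positive, Cpt1a was at -0.048 and the median was 0.47. Summed over the list the level was 1975, 1942 and 1996 CPM in KO, against 1521, 986 and 1336 CPM in WT. The fat marker sums were likewise higher in every KO library, and their part in the oxidation genes was not tested.

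**Figure D5:**
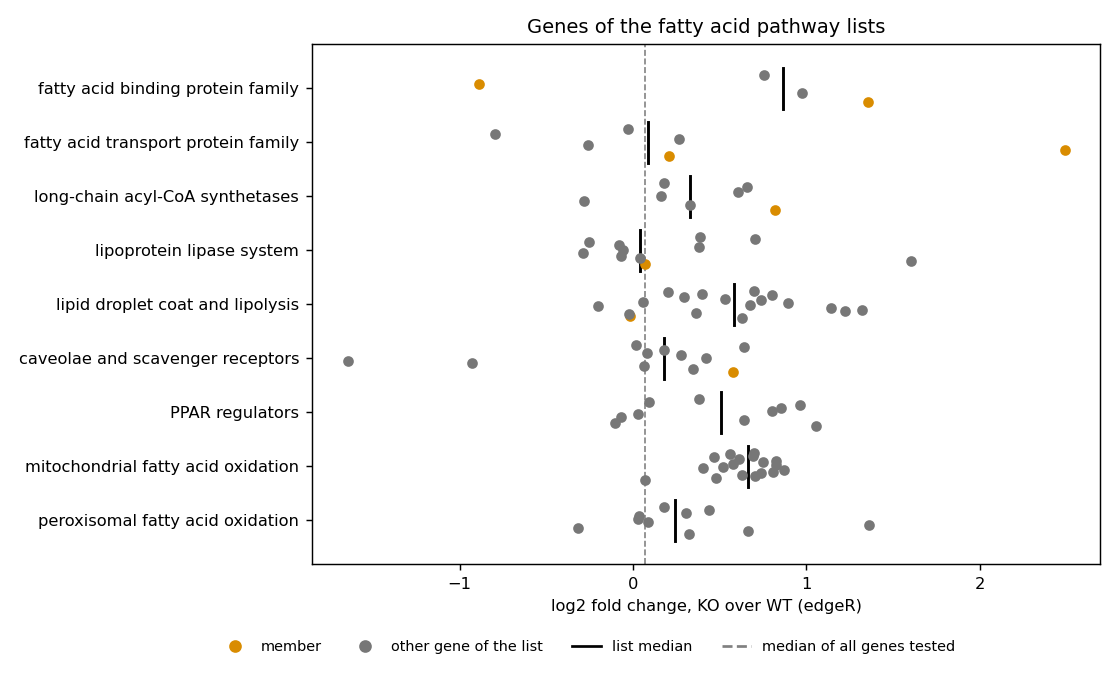
Log2 fold change of KO over WT from edgeR for every tested gene of 9 fatty acid lists, with the 8 genes in orange, list medians as black bars and the median of all genes tested (0.068) as a dashed line. Every mitochondrial oxidation gene lies above 0, while Slc27a2 (2.49) is the highest of its family and Fabp5 (-0.89) is the one binding protein gene below 0.

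Profiles over the 6 libraries were compared by the root mean square difference of log2 CPM after centring each gene on its own mean, a measure that is 0 for genes that move in parallel. The measure is not scaled, so its values tend to be larger for genes that vary more over the libraries, as Slc27a2 does. Gys2 (0.43), Myo5b (0.47) and Acacb (0.49) lay nearest to Slc27a2. The nearest to Fabp3 were Kcna5 (0.225), Zim1 and Sphkap (0.27). Nearest to Fabp5 were Sdc3 (0.095), Ptpre and Spc24 (0.11), nearest to Cd36 were Trcg1, Pparg (0.12) and Tmem120b, and nearest to Acsl1 were Arl4d (0.080), Adra1a and Aldh1a1 (0.092). Lpl lay nearest to Bmx (0.093), Tmem158 and Ttc41, Plin2 to Phf12 (0.024), Slc46a3 and Thap3, and Slc27a1 to Fkbpl (0.063), Zfp69 and Als2cr12. Among the 8 genes themselves Acsl1 and Cd36 were closest (0.19), then Lpl and Plin2 (0.22), and Fabp5 and Slc27a2 were farthest apart (1.74). All genes of a library share its depth and cell composition, and these values are a description only.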

How the data were processed

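RNA from 6 lesions was sequenced. The table deposited by the authors holds unnormalized gene counts. FeatureCounts 1.4.6-p4 made them from mm9 exons, per the file headers, and the same table gives exonic length. The submitters' processing notes also name CASAVA, STAR (as version 3.0), Subread and DESeq2. No strand or multi-mapping option stood in the header's command; 29.9% to 33.4% of alignments mapped to several places and stayed uncounted, and 32.6% to 36.9% were assigned to genes.

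Sample titles gave the group and replicate number. The test of KO against WT was run in edgeR 4.0.16 under R 4.3.3 (TMM, filterByExpr with a minimum count of 10, glmQLFit and glmQLFTest, two-sided, Benjamini-Hochberg adjustment over 15937 genes, threshold 0.05). SEs were derived from the F statistic. RPKM are CPM per kilobase of exonic length. Likeness used log2 CPM with a prior count of 2, among genes with a mean of at least 1 CPM. DESeq2 1.42.0 and limma-voom (limma 3.58.1), other scalings and filters, a replicate block and leaving out libraries were alternatives, and the edgeR step was tested on simulated data. There it called 63 of 100 simulated 4-fold changes and 4 of 100 simulated 2-fold changes, with 5 false calls, so most changes of 2-fold would go uncalled. No replicate pair agreed within sampling noise.

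The 8 genes and the gene lists were chosen with earlier results of these data known. Named genes were Col15a1, the 8 genes, tested members of their families and the perilipins, up to 3 genes per other list with the smallest unadjusted p, and the 3 genes most like each of the 8. Cpt1a and single marker genes were chosen after their values were seen.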

Additional observations from a re-analysis of the deposited data

How the results depend on the processing

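Under 18 other settings, 149 of 162 log2 fold changes kept their direction and their side of the threshold, and 49 of 54 counts stayed within 1.5 times the count reported. The setting with an adjusted p threshold of 0.1 used the main fit, so its log2 fold changes could not differ. A reported count of 0 was kept only where it was again 0. Calls differed by tool: edgeR called 0 genes and limma-voom 0 (1404 at an unadjusted p under 0.05, against 1275 in edgeR), while DESeq2 called 53, of which 3 were among the 8 described, and 45, again with 3, when no filter was applied beforehand, a setting added after the data were seen. Under these 2 DESeq2 settings Fabp3 was at 1.33 (adjusted p 0.0459 and 0.0461) and 1.33, Fabp5 at -0.91 and -0.91 (0.00372 and 0.00654), Slc27a2 at 2.465 and 2.46 (0.000124 and 9.47e-05) and Col15a1 at -1.64 and -1.64 (0.00224 and 0.00238). Without WT 2 and KO 3, also added later, edgeR called 1 gene and none of the 8, whose lowest adjusted p was 0.28, and Slc27a1 turned to -0.094. The cause was not tested.

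Leaving out single libraries gave 0 to 0 genes called and 5 to 7 of the 8 positive. The log2 fold change ran from -0.32 to 0.28 for Lpl (negative without KO replicate 1 and without WT replicate 2), from -0.18 to 0.069 for Plin2 (positive without KO replicate 3 and without WT replicate 3), from 0.94 to 1.53 for Fabp3, from -1.10 to -0.79 for Fabp5, from 2.22 to 2.78 for Slc27a2, from 0.59 to 0.98 for Acsl1, from 0.31 to 0.78 from 0.31 to 0.78 for Cd36, from 0.017 to 0.38 for Slc27a1 and from -1.84 to -1.34 for Col15a1. With the replicate number as a block 0 genes were called in edgeR (741 at an unadjusted p under 0.05) and 6 of the 8 were positive, with Slc27a2 at 2.48 and Fabp5 at -0.89. Deviations of same-numbered libraries correlated at 0.426, -0.677 and -0.583, and those of KO 3 and WT 2 at 0.768. KO 3 and WT 2 are the libraries with nerve markers. These correlations therefore cannot tell whether same-numbered libraries share a litter or day, and no label states a pairing. Precision is limited by 3 animals a group, and read depth bears most on Slc27a2, with as few as 54 reads in a library.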

Other observations

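Further gene groups close to fatty acid uptake went in both directions. Among 11 caveolae and scavenger receptor genes, 9 were positive, and the median log2 fold change was 0.18. Olr1, which encodes a receptor for oxidised lipoprotein, was at 3.41, 4.36 and 0.946 CPM in KO, against 10.4, 8.57 and 8.35 CPM in WT (log2 fold change -1.65, SE 0.53), and Msr1, the class A scavenger receptor gene, at 68.0, 58.9 and 21.6 CPM in KO, against 75.2, 93.8 and 113 CPM in WT (-0.93, SE 0.43). Both lay lower in every KO library (Msr1 at -0.58 without WT 2 and KO 3), while Cd36 in the same list overlapped, and both are made by macrophages, whose marker sum was also lower in every KO library; its part was not tested. Sdpr, a caveolar coat gene, was higher in every KO library (0.64, SE 0.26). None of the 3 passed the adjusted threshold in edgeR or DESeq2.

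Among 10 peroxisomal oxidation genes 9 were positive, with a median of 0.24, and without WT 2 and KO 3, 6 were positive and the median was 0.12. Ehhadh, the bifunctional enzyme gene, was at 28.8, 17.1 and 52.6 CPM in KO, against 16.6, 8.47 and 13.4 CPM in WT (1.36, SE 0.46, and 0.61 without WT 2 and KO 3), and Abcd3, a peroxisomal fatty acyl-CoA transporter gene, at 93.5, 104 and 117 CPM in KO, against 76.4, 77.1 and 78.6 CPM in WT (0.44, SE 0.11). Acox3, an acyl-CoA oxidase gene, was lower in every KO library, at 52.2, 49.0 and 48.0 CPM, against 60.1, 59.7 and 66.3 CPM in WT (-0.32, SE 0.096). None of these passed the adjusted threshold in edgeR or DESeq2.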
